A study of Bombyx mori with 6 samples.

Results

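Tert, FANCD2, FANCI and p53 are 4 genes that guard chromosome ends and damaged DNA, and their transcripts were measured in testes of the silkworm Bombyx mori. They were taken by gene symbol from a table of 15884 genes. They were selected on their measured levels, namely the difference between the strains and the spread among the wild-type libraries. These levels and differences are therefore given as a description, with no test. The study compared testes of a genetic male sterile line, GMS, labelled as a mutant type, with those of wild-type animals (WT) of strain 898WB. All larvae were in the fifth instar, on day 5. There were 3 RNA sequencing libraries per group, labelled as replicates. The labels name neither the mutated gene nor any treatment, and do not say whether a library came from 1 animal or from several, so a p-value here covers how these libraries vary, which may be technical.

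Telomerase copies an RNA template onto chromosome ends, and Tert is its catalytic protein. Silkworm chromosome ends carry short telomeric repeats into which telomere-specific retrotransposons have inserted. In the Fanconi pathway, known best from vertebrates, FANCD2 and FANCI form a pair that is marked with ubiquitin by the ligase FANCL when a replication fork meets a DNA crosslink. The FANCM complex brings the ligase to the site, and the break is then repaired. p53 is a transcription factor that damage kinases such as Chk2 activate, and in flies it drives programmed cell death after DNA damage. In a testis these genes serve cells that divide, recombine in meiosis or are removed.

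The libraries held 19627477 to 28358501 counted reads. WT replicate 3 differed from the rest of its group: across genes its log2 level correlated at 0.985 and 0.982 with WT replicates 1 and 2, against 0.995 between those libraries and between every pair of GMS libraries. Its depth of 21690617 reads lay within the range of the others. These counted reads were 40.2% of the depth implied by the deposited RPKM values (reads scaled to gene length and sequencing depth). That share was 42.4% and 42.5% in WT replicates 1 and 2 and 40.1% to 40.7% in GMS. The reason was not tested. The differences of the 4 genes are given with and without it, as are the calls of the reported list genes that change without it. That library was singled out after its values were seen. Fits without it have only WT replicates 1 and 2 in the WT group. Their adjusted p-values and standard errors leave out the spread that WT replicate 3 adds and can be too small. The testis label was checked against germ-line genes. The testis beta-tubulin Tub4 stood between 24400 and 34400 CPM (counts scaled to library depth with TMM factors) and the testis kinase TSSK between 1600 and 2060 CPM in every library. Boule, a meiotic regulator, had at most 1 read in any library.

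Tert differed most. Its level in WT replicates 1, 2 and 3 was 5.40, 3.76 and 36.8 CPM, and in GMS replicates 1, 2 and 3 it was 59.0, 58.8 and 55.5 CPM. The GMS libraries lay close together and above all WT libraries, and WT replicate 3 lay between them and the low pair. These levels rest on 147, 92 and 781 reads in WT and on 1198, 1430 and 1611 reads in GMS, so the split inside WT is not one of a few reads. The WT mean was 15.3 ± 18.6 CPM, against a GMS mean of 57.8 ± 1.95 CPM (SD, n = 3). The log2 difference, GMS minus WT, was 1.93 with a standard error of 0.75. Without WT replicate 3 it was 3.59 with a standard error of 0.11, a mean ratio of 12.6 in place of 3.77. In whole testes, fewer cells of a type and less RNA per cell cannot be told apart.

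FANCD2, the ubiquitin-marked partner that gathers repair nucleases in vertebrates, had the same order of WT libraries, again all below GMS. It stood at 66.3, 51.3 and 188 CPM in WT replicates 1, 2 and 3, and at 206, 223 and 210 CPM in the GMS libraries. WT replicate 3 was near the GMS libraries, below the lowest of them by a factor of 1.10, and the other WT libraries were far below. The WT mean was 102 ± 75.2 CPM, against a GMS mean of 213 ± 8.47 CPM (SD, n = 3). The log2 difference was 1.07 with a standard error of 0.44, and 1.81 with a standard error of 0.08 without WT replicate 3.

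FANCI, the partner of FANCD2, showed another order. It stood at 31.1, 33.4 and 27 CPM in WT and at 45.4, 45.5 and 50.4 CPM in GMS. The groups did not overlap, and WT replicate 3 was the lowest library of all, farthest from GMS. The means were 30.5 ± 3.25 and 47.1 ± 2.87 CPM (SD, n = 3), and the log2 difference was 0.63 with a standard error of 0.09. Without WT replicate 3 it was 0.50 with a standard error of 0.07.

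p53 was the least abundant of the 4. It stood at 3.2, 2.86 and 1.98 CPM in WT and at 4.58, 4.98 and 5.72 CPM in GMS, from 87, 70 and 42 reads in WT and 93, 121 and 166 reads in GMS. As for FANCI, the groups did not overlap and WT replicate 3 was the lowest library. The log2 difference was 0.92 with a standard error of 0.19, and 0.71 with a standard error of 0.16 without WT replicate 3. All 4 genes were thus higher in each GMS library than in each WT library, as were 26.2% of the 12029 genes tested. Of all tested genes 36.2% passed an edgeR adjusted p of 0.05 in either direction. The members were selected on this contrast, so nothing is read from either share.

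**Figure D1:**
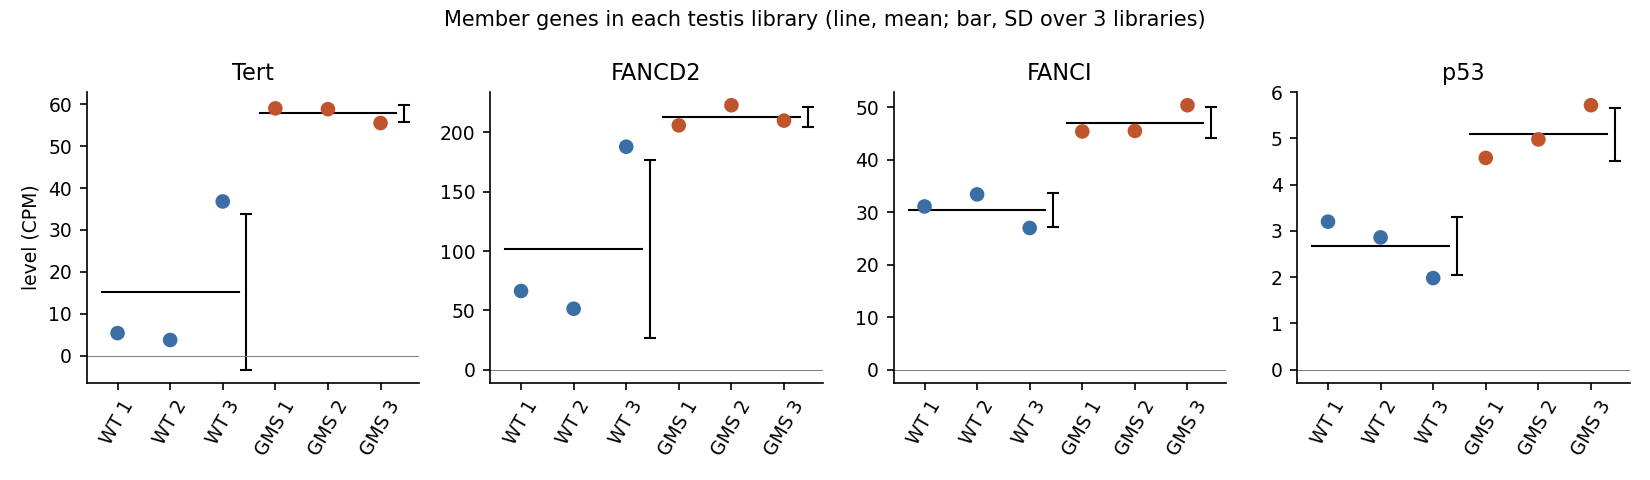
Levels of Tert, FANCD2, FANCI and p53 in CPM (y axes, linear, each with its own scale) in each of the 3 WT (blue) and 3 GMS (orange) testis libraries; lines are group means and bars are SDs over 3 libraries. The WT replicate 3 point lies between the groups for Tert (36.8 CPM) and near the GMS points for FANCD2 (188 CPM), and for FANCI and p53 it is the lowest point (27 and 1.98 CPM).

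The spread within the groups followed the same division. The coefficient of variation over the WT libraries was 122% for Tert and 73.8% for FANCD2, against 10.7% for FANCI and 23.5% for p53. Over WT replicates 1 and 2 alone it was 25.3% for Tert, 18.0% for FANCD2, 5.13% for FANCI and 7.76% for p53. Over the GMS libraries it was 3.37%, 3.98%, 6.08% and 11.4% in the same order. p53 has the fewest reads of the 4.

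WT replicate 3 was then compared with WT replicates 1 and 2 alone. Its Tert level was 8.03 times their mean, and among the 8987 tested genes averaging 5 CPM or more, 15 had a ratio at least as high, or 0.167%. For FANCD2 the ratio was 3.21, reached by 67 genes or 0.746%. The 95% counting intervals of these ratios were 6.88 to 9.24 and 3.04 to 3.34, exact binomial from the pooled reads and covering counting error only. FANCI was lower, with a ratio of 0.837 (counting interval 0.761 to 0.923), and so was p53, with a ratio of 0.653 (counting interval 0.452 to 0.921). Ratios as low were found in 924 genes or 10.3% for FANCI and in 98 genes or 1.09% for p53. The members were selected with the spread among the WT libraries known, so nothing is read from these shares. Over the same 8987 genes the median ratio was 1.0, and the middle 95% ran from 0.730 to 2.07. WT replicates 1 and 2 differed less from each other, with a Tert ratio of 1.43 (counting interval 1.10 to 1.88) and a FANCD2 ratio of 1.29 (counting interval 1.20 to 1.39).

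**Figure D2:**
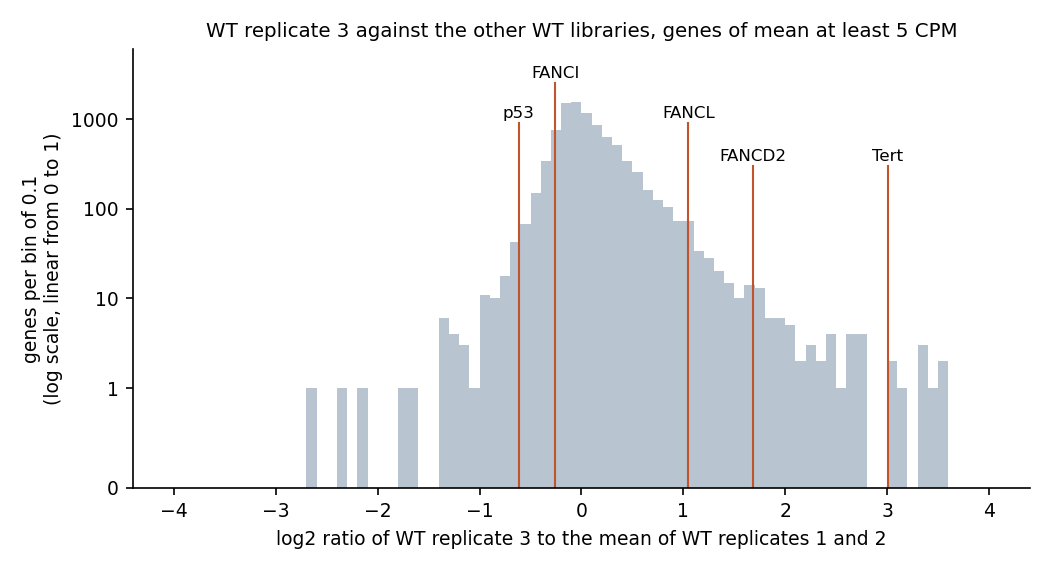
Number of genes (y axis, log scale above 1 and linear below) by the log2 ratio of WT replicate 3 to the mean of WT replicates 1 and 2 (x axis, bins of 0.1), for the 8987 tested genes averaging 5 CPM or more. Genes with ratios beyond the outermost bins are not drawn, some of them with higher ratios than Tert. Vertical lines mark single genes, their height chosen for legibility: Tert (ratio 8.03), FANCD2 (3.21) and FANCL (2.07) lie to the right of the bulk, and FANCI (0.837) and p53 (0.653, mean under 5 CPM) to the left of 0.

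The place of WT replicate 3 between the strains can be put on 1 scale, with 0% at the mean log2 level of WT replicates 1 and 2 and 100% at that of GMS. Tert was at 82.3% and FANCD2 at 90.6%. On the linear scale of CPM they were at 60.6% and 84.1%. FANCI and p53 were below 0%, at -46.8% and -82.1%. Tert and FANCD2 were not alone in this. Of 425 genes at least 2-fold higher in GMS than in WT replicates 1 and 2, all averaging 5 CPM or more, 194 were at 75% or above, 164 below 25% and 67 between. Of 238 genes at least 2-fold lower in GMS, 1 was at 75% or above and 215 below 25%, with a median of 4.22%. The genes higher in GMS thus fell into a set that WT replicate 3 shared with GMS and a set that it did not, and the genes lower in GMS did not divide in this way. On the log2 scale Tert and FANCD2 lay in the first set, at 75% or above. In CPM, Tert in WT replicate 3 was between WT replicates 1 and 2 and GMS, at 60.6%.

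**Figure D3:**
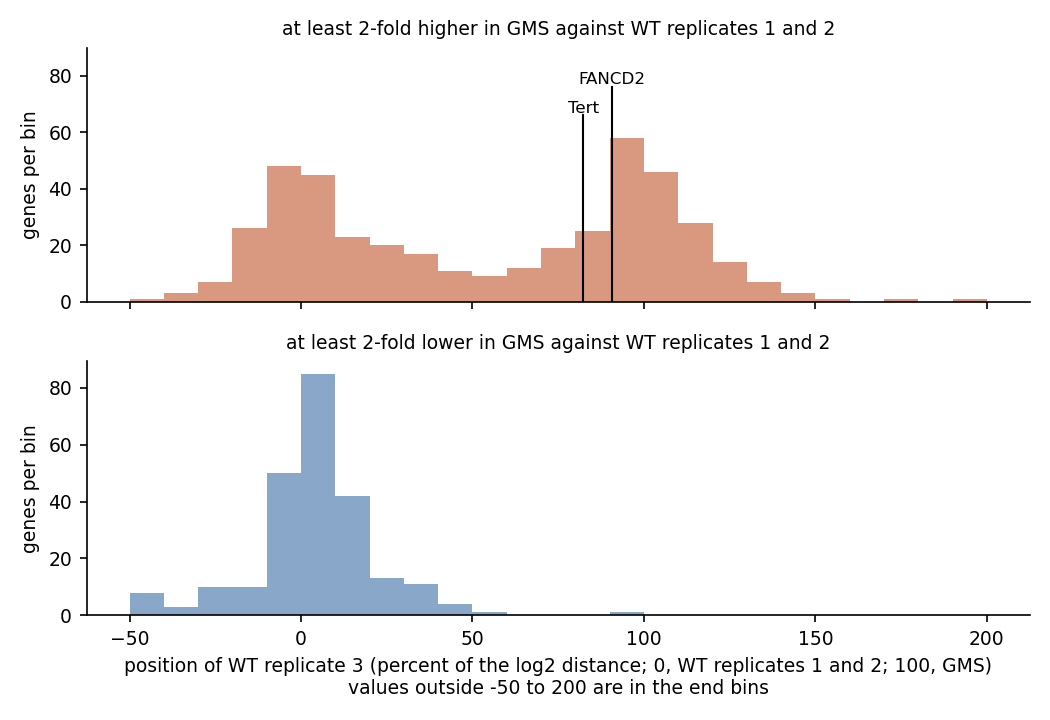
Position of WT replicate 3 (x axis, percent of the log2 distance from WT replicates 1 and 2 at 0 to GMS at 100, bins of 10, values outside the axis in the end bins) for genes at least 2-fold higher (upper) or lower (lower) in GMS than in WT replicates 1 and 2; the y axes count genes. The upper histogram has a peak near 0 and a peak near 100, with Tert at 82.3% and FANCD2 at 90.6%, and the lower one has a single peak near 0.

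Levels were compared between genes per length, as the deposited RPKM (reads scaled to gene length and sequencing depth). FANCD2 was the highest of the 4, with 7.79, 6.03 and 21.4 RPKM in WT and 25.1, 26.6 and 25.6 RPKM in GMS. FANCI ran from 2.48 to 3.17 RPKM in WT and from 4.40 to 4.97 RPKM in GMS. Tert, at 0.879, 0.613 and 5.79 RPKM in WT, was below FANCI in WT replicates 1 and 2 and above it in WT replicate 3 and in GMS, where it ran from 9.38 to 9.93 RPKM. p53 was the lowest, from 0.483 to 0.806 RPKM in WT and from 1.19 to 1.5 RPKM in GMS. In WT replicates 1 and 2 Tert and p53 were at similar levels per length, and in GMS they were not. By mean RPKM over the 6 libraries FANCD2 stood at the 85.1 percentile of the 15059 genes with reads, Tert at the 66.7, FANCI at the 58.0 and p53 at the 39.2.

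FANCD2 and FANCI act as a pair, so their ratio was taken within each library. Per length, FANCD2 over FANCI was 2.64, 1.90 and 8.64 in WT replicates 1, 2 and 3, and 5.63, 6.05 and 5.15 in GMS. WT replicate 3 had the highest ratio of all 6 libraries, with FANCD2 near its GMS level there and FANCI at its lowest. The mean ratio was 4.39 ± 3.70 in WT and 5.61 ± 0.447 in GMS (SD, n = 3). The groups overlap through WT replicate 3 alone: without it the WT mean was 2.27 and both WT libraries lay below every GMS library.

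FANCL, the ligase of the pair, was named after its values were seen and is no member. It stood at 16.4, 13.3 and 30.6 CPM in WT and at 28.5, 31.5 and 26.9 CPM in GMS. WT replicate 3 lay within the GMS range, as it nearly did for FANCD2. Over all 6 libraries FANCL did not pass the test (log2 difference 0.53, standard error 0.28, edgeR quasi-likelihood adjusted p = 0.178). Without WT replicate 3 it did, with a log2 difference of 0.91 and an edgeR adjusted p of 7.27e-07. FANCM, listed as LOC101743653 with FANCM as its synonym, went the other way. This translocase, which anchors the ligase complex on DNA in vertebrates, fell from 43.2 ± 1.11 to 24.8 ± 0.913 CPM (SD, n = 3; log2 difference -0.80, standard error 0.07, edgeR adjusted p = 9.52e-05). Its WT libraries lay between 42.6 and 44.5 CPM, WT replicate 3 among them. Its log2 difference without that library was -0.86. It passed under every one of the 15 alternative settings (adjusted p 1.55e-16 to 0.00297).

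**Figure D4:**
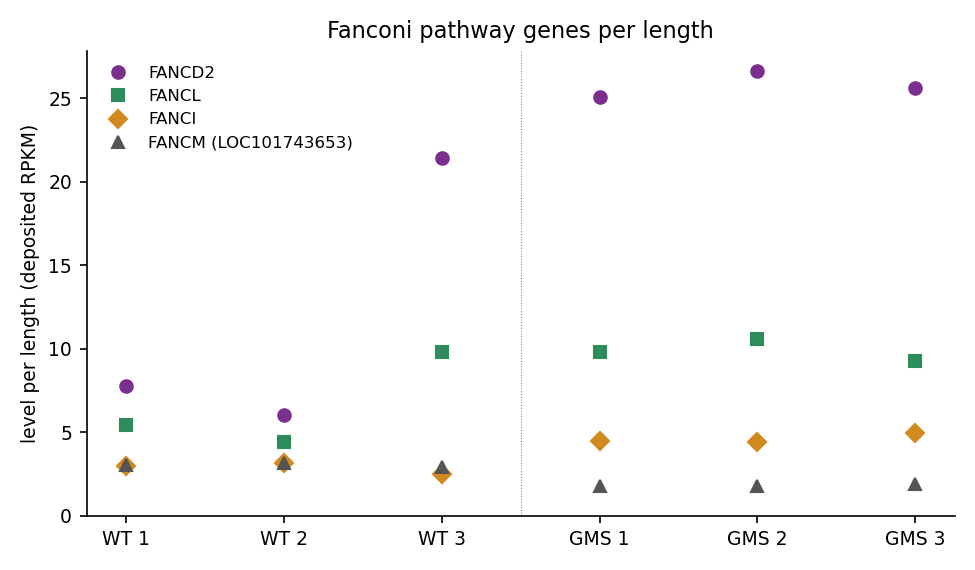
Level per length in RPKM (y axis, linear from 0) of FANCD2, FANCL, FANCI and FANCM in each WT and GMS library (x axis). FANCD2 and FANCL are at their GMS levels or near them in WT replicate 3 (21.4 and 9.81 RPKM), FANCI is lowest there (2.48 RPKM), and FANCM is lower in each GMS library than in each WT library.

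Of the 4 other Fanconi genes that matched a symbol and were tested, 0 rose and 1, FANCM, fell. At an edgeR adjusted p under 0.05, 17.6% of all tested genes were higher in GMS and 18.6% lower. The list median was a log2 difference of 0.28, against 0.05 over all tested genes. RMI1, which helps to dissolve joined DNA molecules, had a log2 difference of 0.32 (edgeR adjusted p = 0.0688). Without WT replicate 3, where FANCL passed, the share of all genes called higher was 29.0%. RMI1 passed without GMS replicate 2 (edgeR adjusted p = 0.0247). The FANCM partners MHF1 and MHF2 were added once the gene symbols had been seen. MHF1 rose by 0.23 on the log2 scale (edgeR adjusted p = 0.0261), though not with WT replicate 1 or any 1 GMS library left out (adjusted p 0.0778 to 0.0967), nor with upper-quartile factors (adjusted p = 0.115) or DESeq2 (adjusted p = 0.0971). MHF2 had a log2 difference of 0.24 (edgeR adjusted p = 0.328), and its WT replicate 3 level of 44.5 CPM was above the GMS range of 38.3 to 41.6 CPM. Without that library it passed, at 0.44 (edgeR adjusted p = 9.77e-05).

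Of the 3 tested genes around p53, 1 rose and 0 fell, with a list median of 0.18, where 17.6% of all tested genes were called higher and 18.6% lower. Chk2, the checkpoint kinase upstream of p53, rose from 74.4 ± 8.93 to 94.6 ± 6.81 CPM (SD, n = 3; log2 difference 0.35, standard error 0.10, edgeR adjusted p = 0.0278). The call was lost without WT replicate 1, WT replicate 2, GMS replicate 1 or GMS replicate 2, where the edgeR adjusted p was 0.0758 to 0.104, and it was kept without WT replicate 3 or GMS replicate 3. The effectors of cell death Apaf-1, which assembles the apoptosome, and Nc, the initiator caspase Dronc, had log2 differences of 0.18 and 0.14 (edgeR adjusted p = 0.285 and 0.398). The telomere list matched no symbol besides Tert. Parn, a nuclease that matures telomerase RNA in humans, was added once the symbols had been seen. It rose by 0.17 on the log2 scale (edgeR adjusted p = 0.0354), but with any 1 library other than WT replicate 3 left out the adjusted p was 0.0521 to 0.135. With upper-quartile factors it was 0.187 and with DESeq2 0.16.

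Of 5 other repair genes 0 rose and 0 fell, with a list median of 0.06. Over all tested genes 17.6% were called higher and 18.6% lower. The replication protein A subunits Rpa1 and Rpa2, which coat single-stranded DNA, had log2 differences of -0.08 and 0.06 (edgeR adjusted p = 0.229 and 0.500). Without WT replicate 3 Rpa1 fell by 0.12 (edgeR adjusted p = 0.0359). Of 4 repair genes added later 0 rose and 1 fell, the histone gene H2ax-l, by 0.37 (edgeR adjusted p = 0.00329). Ubc13, another of these, fell by 0.15 without WT replicate 3 (edgeR adjusted p = 0.0051). The replication and cell cycle list had 14 tested genes, of which 3 rose and 0 fell; its median log2 difference was 0.04. The cyclin gene Cyce, which drives entry into S phase, rose by 0.77 from 6.21, 7.45 and 10.1 CPM in WT to 13.1, 14.1 and 13.1 CPM in GMS (edgeR adjusted p = 0.0115), and by 0.93 without WT replicate 3. The origin licensing genes Cdt1 and ORC1 rose by 0.37 and 0.44 (edgeR adjusted p = 0.0141 and 0.0277). Cdt1 missed the threshold without GMS replicate 2 (edgeR adjusted p = 0.0565), and ORC1 without any 1 library other than WT replicate 3 (edgeR adjusted p 0.0646 to 0.1). Without WT replicate 3 the counts were 5 and 3, with Cycb and Cdc2 also higher and RnrS, Aurora-B and LOC101740671, listed with PLK1 as its synonym, lower. In that fit 29.0% of all tested genes were called higher and 29.0% lower. Of 8 cell cycle genes added later 2 rose and 0 fell: ORC5, an origin recognition subunit, by 0.39 (edgeR adjusted p = 0.00983), and Borealin, of the chromosomal passenger complex, by 0.54 (edgeR adjusted p = 0.0279). Borealin missed the threshold without WT replicate 1, WT replicate 2, GMS replicate 3 or GMS replicate 1, at edgeR adjusted p-values of 0.0622 to 0.101. TOP2 and Tyms, also added, rose by 0.33 and 0.31 without WT replicate 3 (edgeR adjusted p = 3.3e-05 and 0.0099). Pcna, the sliding clamp of replication, stood between 62.1 and 65.6 CPM in WT and between 60.3 and 63.4 CPM in GMS.

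**Figure D5:**
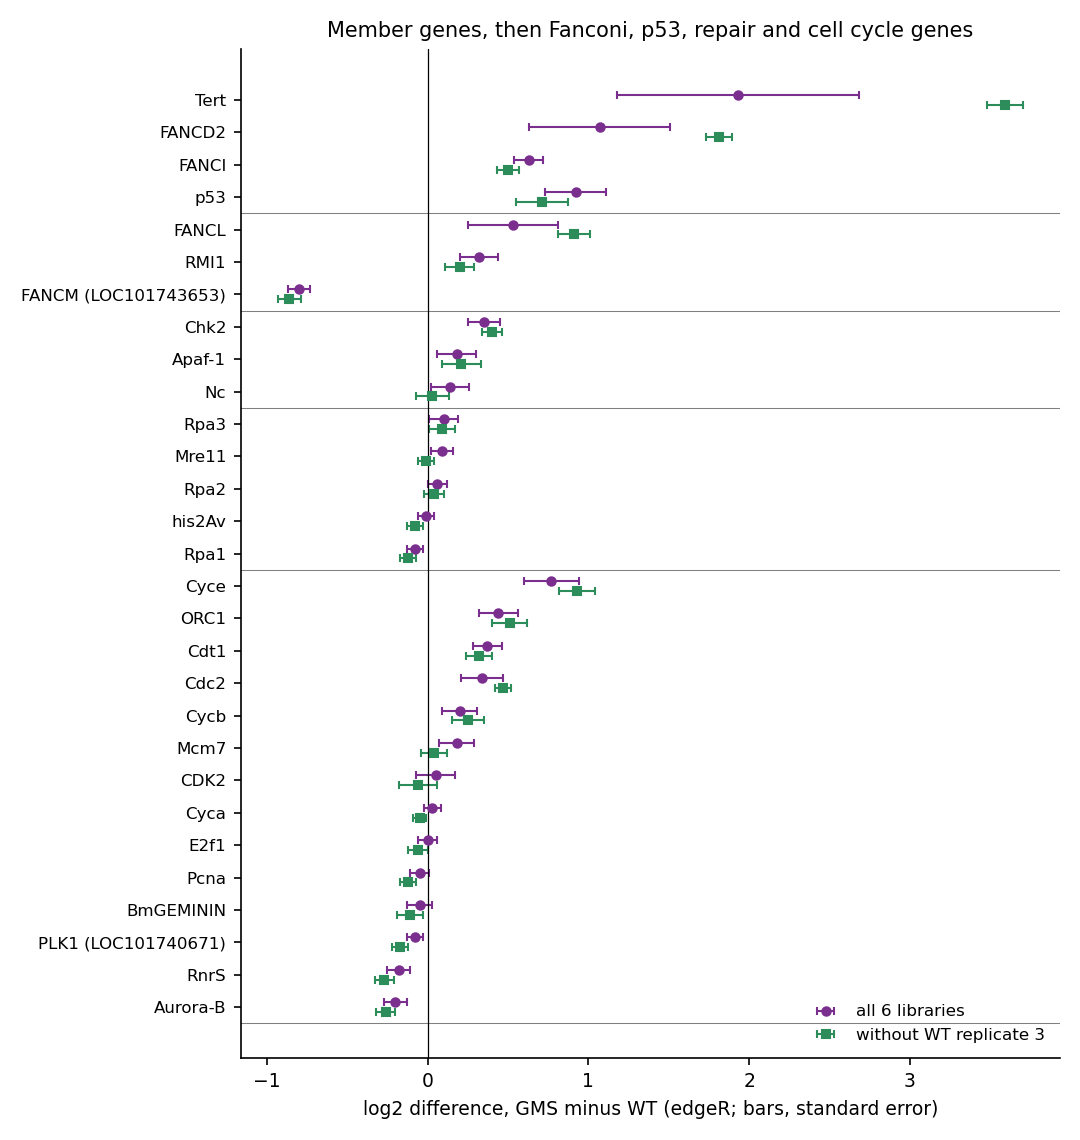
Log2 difference between GMS and WT (x axis, edgeR estimate, bars are standard errors) for Tert, FANCD2, FANCI and p53 and then for the reported tested genes of the Fanconi, p53, repair and cell cycle lists, over all 6 libraries (circles) and without WT replicate 3 (squares). The standard error of Tert falls from 0.75 to 0.11 and that of FANCD2 from 0.44 to 0.08 without that library, and FANCM is the lowest gene at -0.80.

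Markers of the cells a testis sample can hold were read beside these values. Of 7 tested germ-line genes 3 rose and 2 fell, where 17.6% of all tested genes were called higher and 18.6% lower. Dmc1, the meiotic recombinase, rose by 0.93 on the log2 scale from 9.04 ± 0.726 to 17.2 ± 0.993 CPM (SD, n = 3; edgeR adjusted p = 0.000341), and Aubergine, a piRNA protein, rose by 0.23 (edgeR adjusted p = 0.00421). The other gene that rose was Vlg, the vasa homolog, at 0.17 (edgeR adjusted p = 0.0264). Its call was lost without any 1 library other than WT replicate 3 (edgeR adjusted p 0.0623 to 0.108), with upper-quartile factors (edgeR adjusted p = 0.146) and with DESeq2 (adjusted p = 0.0933). TSSK fell by 0.29 and Tub4 by 0.40 (edgeR adjusted p = 0.00153 and 0.00156). The summed level of the 8 germ-line genes, nearly all of it Tub4, was 32300 to 36900 CPM in WT and 26600 to 27300 CPM in GMS. WT replicate 3 was the lowest WT library in that sum. Dmc1 in WT replicate 3, at 8.77 CPM, was between WT replicates 1 and 2, unlike Tert and FANCD2.

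The haemocyte genes NimB and PPO2 both rose, by 1.02 and 0.76, and with PPO1, which was too low to test, summed to 46.0 to 58.7 CPM in WT and 93.4 to 107 CPM in GMS. The fat body genes LP4, LP3, Sp1 and Sp2 all fell, by 1.38, 1.07, 1.03 and 1.56, from a sum of 197 to 263 CPM to one of 101 to 108 CPM. The epidermal genes CPR25 and CPT1 fell by 0.86 and 0.69, from a sum of 82.1 to 89.9 CPM to one of 48.8 to 51.7 CPM. These 8 calls had edgeR adjusted p-values of 0.00019 to 0.00261, and each held under all 15 alternative settings. Among all tested genes 17.6% were called higher and 18.6% lower. In WT replicate 3 the haemocyte and fat body sums, at 46.0 and 197 CPM, and the epidermal sum, at 82.1 CPM, were the lowest of the WT libraries, so the haemocyte sum lay farther from GMS there and the fat body and epidermal sums nearer to it. Single genes did not all follow these sums. Of the fat body genes 3 were lowest of WT in WT replicate 3 and 1, Sp2, was highest, at 1.84 CPM. Of the epidermal genes 1 was lowest there and 1, CPT1, was highest, at 37.0 CPM. Of the muscle list no entry matched a symbol. Whether the cell makeup of the samples had a part in the levels of the 4 genes was not tested.

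The genes nearest in pattern were sought among named genes averaging 5 CPM or more, by the Euclidean distance between log2 levels centred over the 6 libraries. For Tert the nearest was the microRNA locus Mir3426, at a distance of 1.18, with 2.32, 0.941 and 10.2 CPM in WT and 8.55 to 12.4 CPM in GMS. The next was FANCD2, at 1.98. CTL16, a C-type lectin gene, came next at 2.47, but stood at 2.5 CPM in WT replicate 3, with the other WT libraries. Among all 8986 genes of that level, named or not, these ranked 10, 36 and 110 in distance from Tert. For FANCD2 the nearest named genes were pburs, a subunit of the hormone bursicon, and Syti, a synaptotagmin gene, both at 0.82, then GDAP1 at 0.92. Among all genes they ranked 112, 113 and 154, and the smallest distance was 0.18. pburs stood at 21.1, 17.6 and 51.1 CPM in WT and Syti at 19.0, 17.4 and 38.8 CPM, and in GMS they ran from 39.2 to 51.4 and from 39.3 to 41.5 CPM.

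FANCI had closer company, with the small heat shock gene Hsp19.9 at 0.12, the growth factor gene Miple at 0.14 and serpin-5 at 0.20. Among all genes they ranked 3, 12 and 40. Hsp19.9 stood at 2060, 2060 and 1730 CPM in WT and at 3070 to 3300 CPM in GMS, the same shape as FANCI at a far higher level. For p53 the nearest were SPZ1 at 0.30, with 10.5, 9.13 and 7.26 CPM in WT and 15.8 to 16.3 CPM in GMS, then Cb10 at 0.37 and BGRP1 at 0.42. Their ranks among all genes were 2, 7 and 14. FANCI and p53 were 0.50 apart, Tert and FANCD2 1.98 apart, and Tert and FANCI 3.67 apart. Over all genes averaging 5 CPM or more, with a symbol or without, the median distance was 4.06 from Tert, 2.11 from FANCD2, 0.86 from FANCI and 1.28 from p53, so a small distance is common for a gene that varies little.

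The reads carry no strand, and 3 of the 4 genes overlap another gene on the RefSeq assembly ASM3026992v2, so reads in the overlap cannot be assigned by strand. LOC101741531, which overlaps Tert, stood at 90.3, 92.1 and 81.1 CPM in WT and at 84.0, 82.3 and 83.9 CPM in GMS, and does not share the pattern of Tert. Its log2 difference was -0.07 (edgeR adjusted p = 0.381), and -0.18 without WT replicate 3 (edgeR adjusted p = 0.00492). LOC101742288, which overlaps p53, had a log2 difference of 0.13 (edgeR adjusted p = 0.231), and 0.16 without WT replicate 3 (edgeR adjusted p = 0.0242). LOC105841629, which overlaps FANCI, was at 1.10 to 2.80 CPM in all libraries. No gene of that assembly overlaps FANCD2.

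Neighbours on that assembly were read as well. Before Tert lie LOC101741390 and then LOC101741249, both higher in GMS. LOC101741249 stood at 10.6, 8.72 and 18.6 CPM in WT and at 35.2, 32 and 31.8 CPM in GMS (log2 difference 1.39, edgeR adjusted p = 0.00468), and LOC101741390 at 4.41, 3.60 and 7.45 CPM in WT and at 8.52, 9.34 and 8.41 CPM in GMS (log2 difference 0.77, edgeR adjusted p = 0.0442). In both, WT replicate 3 was the highest WT library, as for Tert. LOC101741390 missed the threshold without any 1 library other than WT replicate 3 (edgeR adjusted p 0.0938 to 0.14). LOC101737668, the first tested gene after Tert, had a log2 difference of 0.07 (edgeR adjusted p = 0.572), and 0.13 without WT replicate 3 (edgeR adjusted p = 0.0472). Next but 1 before FANCD2 lies LOC101744707, at 55.9, 48 and 104 CPM in WT and at 96.2, 97.9 and 91.4 CPM in GMS. It did not pass over all 6 libraries (log2 difference 0.46, edgeR adjusted p = 0.212) but did without WT replicate 3 (log2 difference 0.82, edgeR adjusted p = 1.52e-08). The genes directly beside FANCD2, LOC101736145 and LOC101744564, had log2 differences of -0.01 and 0.07 (edgeR adjusted p = 0.889 and 0.419). Next but 1 after FANCD2, LOC101736010 had -0.07 (edgeR adjusted p = 0.318), and -0.16 without WT replicate 3 (edgeR adjusted p = 0.00175). Before FANCI lies LOC101741471, higher by 0.37 (edgeR adjusted p = 0.0201), a call lost without any 1 library other than WT replicate 3 (edgeR adjusted p 0.0584 to 0.0717). The genes after FANCI, LOC101741279 and LOC101741136, went the other way, with log2 differences of -0.21 and -0.23 (edgeR adjusted p = 0.0354 and 0.0442). Both calls were lost with WT replicate 1, WT replicate 2, GMS replicate 1 or GMS replicate 3 left out (edgeR adjusted p 0.0664 to 0.138), the first also without GMS replicate 2 (0.119), and both with library totals alone (0.157 and 0.174) or limma on log2 RPKM (0.189 and 0.108). Next but 1 before p53, LOC101742434 had a log2 difference of -0.25 (edgeR adjusted p = 0.0284), lost without WT replicate 1, WT replicate 2, GMS replicate 3 or GMS replicate 1 at edgeR adjusted p-values of 0.0511 to 0.109, with library totals alone (0.133) and with limma on log2 RPKM (0.0525). The other gene before p53, LOC101738561, had 0.27 (edgeR adjusted p = 0.152), and A4, next but 1 before FANCI, had -0.16 (edgeR adjusted p = 0.119). A4 passed without WT replicate 3, at -0.28 (edgeR adjusted p = 7.95e-06). After p53, LOC101742141 fell by 0.42 and the next gene, LOC101742000, rose by 0.66 (edgeR adjusted p = 0.000788 and 0.0019).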

How the data were processed

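RNA of testes was sequenced in 3 WT and 3 GMS libraries. Per the labels' protocols, TRIzol was the extraction reagent and a TruSeq RNA kit the library kit, a kit that does not mark strand. The submitters' processing notes name HISAT2 2.1.0 and featureCounts 1.6.2. Which genome build was used is not given in the sources used here. Raw read counts per gene and, separately, RPKM values per gene were deposited by the authors, per the file headers. Gene symbols came from the RefSeq table of assembly ASM3026992v2, which named 13030 of 15884 genes.

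Counts were fitted with the quasi-likelihood test of edgeR 4.0.16 in R 4.3.3 with TMM factors, the filterByExpr filter (12029 genes), no covariate besides group, and Benjamini-Hochberg adjustment over all tested genes at 0.05. Standard errors follow from the F statistic. The procedure was tested on simulated data in which no library differed from its group, so that test does not cover a library such as WT replicate 3. The members and lists were chosen with earlier results of these data known. Lists held gene symbols and synonyms, and genes were matched for 4 of 29 Fanconi, 3 of 23 p53, 5 of 46 repair, 15 of 34 cell cycle and 0 of 21 telomere entries; 1 further match, to a carotenoid-binding protein, was dropped. The values of 1 matched Fanconi gene are not reported here, though the list counts and median include it. Named were the 4 members, up to 4 called genes of smallest p per list or the 2 most abundant where none was called, and the 3 genes nearest to each member. FANCL, RMI1, Apaf-1, Nc, Vlg, Pcna, PPO1, Boule, the cell cycle genes named without WT replicate 3, the added genes and the genes of overlapping or neighbouring position were named after their values were seen. Alternatives were DESeq2 1.42.0, limma 3.58.1, other scalings and filters, each library left out, the replicate number as a block and limma on log2(RPKM + 0.1).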

Additional observations from a re-analysis of the deposited data

How the results depend on the processing

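All 4 members kept the direction of their difference under each of the 15 alternative settings. For every member each GMS library lay above each WT library, so leaving a library out could not reverse the direction. Nothing is read from this. Each member also kept the direction of its WT replicate 3 ratio under library totals, upper-quartile factors and deposited RPKM values. With limma-voom and sample quality weights, chosen after seeing the data, WT replicate 3 had a weight of 0.193 against 0.964 to 2.38 for the others. That fit gave a Tert difference of 3.42, 7311 changed genes against 4357, 3 Fanconi genes higher against 0, and 5 cell cycle genes higher and 3 lower. With 1 library left out, the log2 difference ran from 1.47 to 3.59 for Tert, 0.74 to 1.81 for FANCD2, 0.50 to 0.70 for FANCI and 0.71 to 1.07 for p53, the first 2 highest and the last 2 lowest without WT replicate 3. The number of changed genes ran from 2999 to 7104. Fanconi genes called higher ran from 0 to 2, p53 pathway genes higher from 0 to 1, repair genes lower from 0 to 1, and cell cycle genes from 1 to 5 higher and 0 to 3 lower. With library totals alone 1 Fanconi gene and 1 repair gene were higher. 1 cell cycle gene was lower with DESeq2, with upper-quartile factors, with a minimum of 1 CPM in 3 libraries and with limma-voom.

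With the replicate block, 0 p53 pathway genes and 1 cell cycle gene were higher. The calls of Chk2 (adjusted p = 0.0772), Cdt1 (0.0604), ORC1 (0.0711), Borealin (0.053), MHF1 (0.09), Parn (0.103), Vlg (0.0691), LOC101741390 (0.0674), LOC101741471 (0.0536), LOC101741279 (0.0801) and LOC101742434 (0.0722) were lost under the block. Deviations of same-numbered libraries from their group means correlated at 0.048, -0.169 and -0.169, and those of differently numbered libraries at -0.135 to 0.198. Within a group of 3 such deviations depend on each other, so these values cannot decide whether the replicate numbers pair the libraries. The cause of these changes was not tested. Depth limits p53 most, with 42 to 166 reads per library. The telomere list was not run, since it matched no symbol.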
